A study of Mus musculus with 4 samples.

Results

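Genes with placeholder symbols were followed through a pair of piggyBac mutant libraries made in haploid cells of the mouse, labelled neural stem cell-like. They comprised RIKEN clones (symbols ending in Rik), gene models (Gm and a number), expressed-sequence and cDNA names (D6Wsu163e, AI661453, BC052040 and the like), and the sequence families Fam and Tmem. Members were all genes in either deposited table whose whole symbol had one of these forms, a rule that uses no read count. There were 312 such genes among the 5614 genes listed in the 2 tables. By form there were 125 Rik, 56 Fam, 54 Gm, 50 Tmem, 14 symbols of 2 letters and 6 digits, 9 BC and 4 D-number symbols ending in e.

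Placeholder symbols are given when a transcript has been sequenced before any function is assigned to it. RIKEN names come from full-length cDNA collections, Gm names from gene prediction, Fam names from sequence similarity alone, and Tmem names from a predicted membrane span. Many such genes are renamed later, when a role is found. Insertional mutagenesis in haploid cells is a way to reach such genes without choosing them, because an insertion that disrupts the only copy can show an effect.

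The cells carried 1 chromosome set. They came from haploid embryonic stem cells (strain background 129Sv) that formed embryoid bodies and then grew with FGF2, EGF, the inhibitors LDN193189 and SB431542, and a ROCK inhibitor. For both libraries a piggyBac gene trap was brought in together with its transposase and G418 selection followed, and the labels give no treatment, time or genotype that sets library 1 apart from library 2. Splinkerette PCR products of genomic DNA from 4 samples were sequenced, and each table pools the 2 samples of its library, so no value has a replicate check and all intervals below cover counting error only. The reads come from transposon junctions in DNA and measure no expression, so the labelled cell type could not be checked against marker genes. Library 1 held 55442 nonredundant and 877870 redundant reads in 4184 genes, and library 2 held 48750 and 1300140 in 3168 genes.

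Members took an unequal part of the reads of the 2 libraries. In library 1 they held 4068 nonredundant reads, 7.34% of the library (95% interval 7.12 to 7.56), while making up 5.38% of its listed genes. In library 2 they held 1228 reads, 2.52% (2.38 to 2.66), while making up 5.18% of its listed genes. A few genes carried most of these reads, since the 3 leading members had 51.6% of the members' reads in library 1 and 58.3% in library 2. Without D6Wsu163e the share in library 1 was 5.63%, and without Fam178b the share in library 2 was 1.43%. The totals behind these shares also differ in spread. The 3 leading genes of each library, none of them a member, held 6.92% of all nonredundant reads in library 1 and 25.4% in library 2. By redundant reads members held 9.29% of library 1 and 0.673% of library 2.

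Library 1 listed 225 of the 312 members (72.1%), against 74.5% of all 5614 genes, and library 2 listed 164 (52.6%), against 56.4% of all genes. Both libraries listed 77 members (24.7%, 95% interval 20.0 to 29.9), against 31.0% of all genes. Library 1 alone listed 148 of the 312 members and library 2 alone 87, against 2298 and 1343 of the 5302 other listed genes. The D-number symbols were the only form with all its members in both libraries, 4 of 4. Of the 125 Rik genes 29 were in both, of the 50 Tmem genes 14, of the 54 Gm genes 13 and of the 56 Fam genes 12.

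Most members rested on very few reads. The median member had 1 nonredundant read in each library, as had the median of all listed genes. Exactly 1 read was seen for 136 of 225 members in library 1 (60.4%, 95% interval 53.7 to 66.9), against 53.3% of other listed genes, and for 109 of 164 in library 2 (66.5%, 58.7 to 73.6), against 59.3% of other listed genes. A further 63 and 41 members had 2 to 9 reads. Over both libraries together, 173 of the 312 members had 1 read in all. At 2 or more reads library 1 had 89 members (28.5%, against 34.5% of all genes) and library 2 had 55 (17.6%, against 22.7%).

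At 10 or more reads there were 26 members in library 1 (8.33%, against 8.89% of all genes) and 14 in library 2 (4.49%, against 5.24%). These 38 genes, 2 of them in both counts, made up 12.2% of members (95% interval 8.76 to 16.3), against 13.4% of all genes. At 100 or more reads library 1 had 8 members (2.56%, against 2.24% of all genes). Library 2 had 1, Fam178b (0.321%, against 1.39%).

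D6Wsu163e, a gene of 1 RefSeq transcript on chromosome 6, was the member with most reads. It had 949 nonredundant and 31013 redundant reads in library 1, against 2 and 2 reads in library 2. It ranked 4 among all genes of library 1 and held 1.71% of its reads. Its share was 417-fold higher in library 1 than in library 2 (95% interval 115 to 3450), an interval made wide by the 2 reads of library 2. The other 3 symbols of this form had 1 to 2 reads in either library: D5Ertd579e had 2 in library 1 and 1 in library 2, D7Ertd443e 2 and 1.

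1600023N17Rik differed from every other member in its transcripts. It was the only member listed with a noncoding (NR) RefSeq transcript, while 311 of 312 members (99.7%, 95% interval 98.2 to 100.0) were listed with coding (NM) transcripts. It had 177 nonredundant and 3113 redundant reads in library 1 and no entry in library 2. Against a floor of 3 reads, its share was at least 51.9-fold higher in library 1. The RefSeq table calls it a lncRNA of 1008 bases, and no other gene of that table overlaps it. Among all 5614 genes there were 2 further NR entries, Mir217 with 1 read in library 2 and the lncRNA gene Tug1 with 1 read in library 1.

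NR genes were thus scarce in the tables as a whole. Of 5185 genes that the RefSeq table gives with NR and no NM transcripts, 9 were listed, and of the 3275 of these with a symbol of the forms above, 3 were. Of 21031 genes with NM transcripts 5601 were listed. There were 2 members, Gm11715 and Gm1587, listed with NM transcripts that are lncRNA genes in the RefSeq table, and each had 1 read in library 2. How noncoding transcripts were treated when reads were assigned to genes is not given in the sources used here. Nor is the gene annotation used, so how many of these NR genes could be listed at all is not known.

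The windows of D6Wsu163e and 1600023N17Rik are shown because these 2 genes mark the extremes of the set, the most reads and the only noncoding entry. Each runs from 250 bases before to 50 bases after the gene start (RefSeq, GRCm38.p6), and TTAA, the target sequence of piggyBac, is in capitals. The first lies at chr6:126939716-126940015, plus strand, the second at chr5:45669659-45669958, minus strand.
D6Wsu163e: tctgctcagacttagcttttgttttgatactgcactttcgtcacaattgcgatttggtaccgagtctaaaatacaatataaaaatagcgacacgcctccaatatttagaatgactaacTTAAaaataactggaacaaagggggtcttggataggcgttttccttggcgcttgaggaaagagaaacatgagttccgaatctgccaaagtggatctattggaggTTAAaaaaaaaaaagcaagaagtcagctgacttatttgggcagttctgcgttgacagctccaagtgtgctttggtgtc
1600023N17Rik: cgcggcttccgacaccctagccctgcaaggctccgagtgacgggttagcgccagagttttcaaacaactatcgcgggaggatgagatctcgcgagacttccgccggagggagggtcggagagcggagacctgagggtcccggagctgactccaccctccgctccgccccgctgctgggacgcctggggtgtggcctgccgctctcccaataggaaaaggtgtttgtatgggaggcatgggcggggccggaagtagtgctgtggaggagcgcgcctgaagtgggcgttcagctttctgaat
The window of D6Wsu163e held 2 TTAA and that of 1600023N17Rik none. TTAA, which reads the same on both strands, was in 52.4% of all 32841 windows and in 42.6% of the 331 windows of members. The tables give no insertion positions, so no read can be placed in or outside these windows.

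Among Rik genes, 1700113H08Rik followed with 642 nonredundant and 3905 redundant reads in library 1, against 2 and 3 in library 2. It ranked 10 in library 1, and its share was 282-fold higher there (95% interval 77.8 to 2336). 2310035C23Rik, now named Relch and known for cholesterol transfer at recycling endosomes, had 227 reads in library 1 and no entry in library 2 (at least 66.5-fold higher). 1700025G04Rik had 112 reads in library 1 and 8 in library 2, a ratio of shares of 12.3 (6.04 to 29.2). 2010111I01Rik, now Aopep and encoding an aminopeptidase, had 77 and 3 reads. 4930415O20Rik had 60 reads and D330045A20Rik, now Radx and known to act on replication forks, had 26, both in library 1 alone. A830018L16Rik had 41 reads in library 1 and 1 in library 2.

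Rik genes had fewer reads in library 2. In library 1, 88 listed members had 1503 reads, against 160 reads for 66 listed members in library 2. The highest was 6330403A02Rik, now Stum, with 18 reads and no entry in library 1. F830045P16Rik had 1 read in library 1 and 17 in library 2, and 4930558K02Rik had 13 in library 2 alone. 2810417H13Rik, now Pclaf and encoding a protein that binds the replication clamp, had 10 reads in library 2 alone.

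Tmem genes had 1079 reads in library 1 and 253 in library 2. Tmem71 had 509 nonredundant and 23332 redundant reads in library 1, against 1 and 1 in library 2. Tmem163, which encodes a zinc transporter of synaptic vesicles and lysosomes, had 267 reads in library 1 and 18 in library 2, a ratio of shares of 13.0 (95% interval 8.09 to 22.3). It was one of 2 members with 10 or more reads in both libraries. Tmem178 (121 reads) and Tmem184a (68) were listed in library 1 alone, as was Tmem57 (25), now Maco1. Tmem2, now Cemip2 and encoding a cell surface hyaluronidase, had 32 reads in library 1 and 1 in library 2.

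The opposite lean was seen for 4 Tmem genes. Tmem135, whose protein is linked to peroxisomes and mitochondria, had 1 read in library 1 and 90 in library 2, and its share in library 1 was 0.00977 of that in library 2 (95% interval 0.000245 to 0.0558). Tmem245 had 1 and 37 reads. Tmem55a, now Pip4p2 and encoding a phosphoinositide phosphatase of the endosomal and lysosomal membrane, had 1 and 28. Tmem210 had no entry in library 1 and 52 reads in library 2, which makes its share at least 19.7-fold lower in library 1. Its gene is 1043 bases long in the RefSeq table, close to the 1008 bases of 1600023N17Rik, and no other gene of that table overlaps it.

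**Figure D1:**
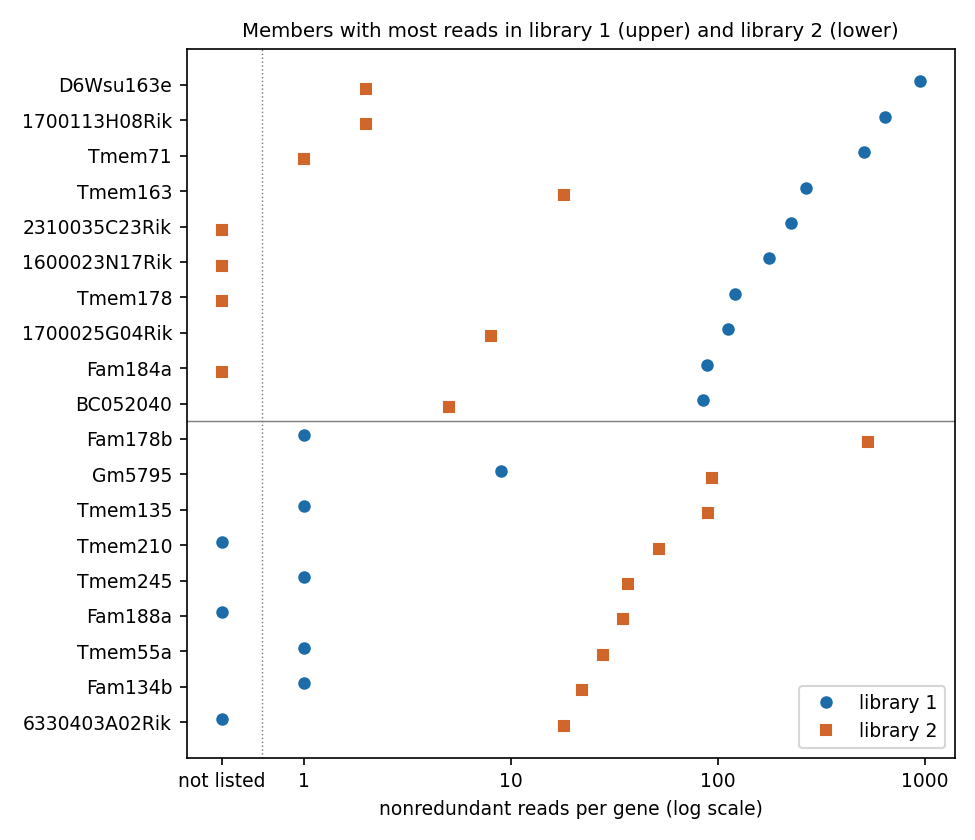
Nonredundant reads (horizontal axis, log scale) of the 10 members with most reads in library 1 (upper block) and of those with most reads in library 2 not already shown (lower block); circles are library 1, squares library 2, and genes without an entry stand at the left. Each block's leading library has at least 18 reads per gene, and the other library has 18 at most.

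Fam genes were the form whose reads lay mostly in library 2, and this turned on 1 gene. They had 159 reads in library 1 and 629 in library 2, of which Fam178b had 1 and 532. Without Fam178b they had 158 and 97. Fam178b ranked 12 in library 2, with 5631 redundant reads, and its share in library 1 was 0.00165 of that in library 2 (95% interval 4.18e-05 to 0.00925). Fam188a, now Mindy3 and encoding a deubiquitinase, had 35 reads in library 2 alone. Fam134b, now Retreg1 and a receptor for autophagy of the endoplasmic reticulum, had 1 read in library 1 and 22 in library 2. Fam184a had 89 reads in library 1 alone. Fam155a, whose protein is an auxiliary subunit of the sodium leak channel NALCN, had 13 reads in library 1 and 1 in library 2.

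Gm genes showed a smaller range, with 262 reads in library 1 and 160 in library 2. Gm5795 led with 9 and 94 nonredundant and 214 and 243 redundant reads. By redundant reads its share was not higher in library 2. Gm21992 had 48 reads and Gm525 had 30, both in library 1 alone. Gm21949 had 20 in library 1 and 1 in library 2. Gm37013, listed with 23 transcripts of 22 RefSeq genes, the most of any member, had 10 reads in library 1 and 15 in library 2. Its reads cannot be assigned to 1 of these genes, and its ratio of shares was 0.586 (95% interval 0.236 to 1.39). It was the other member with 10 or more reads in both libraries, and together with Tmem163 it makes 0.641% of members, against 0.766% of all genes.

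The cDNA and expressed-sequence names added little besides BC052040, which had 85 reads in library 1 and 5 in library 2. The remaining BC genes had at most 1 read per library, among them BC021891 (now Map3k21, a protein kinase gene) with 1 in each and BC003331 (now Odr4) with 1 in library 2. The 14 symbols of 2 letters and 6 digits had 22 reads in all in library 1 and 11 in library 2. AI661453 had 5 and 3, AW554918 4 and 4, and AI846148 (now Spindoc) 1 and 2.

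**Figure D2:**
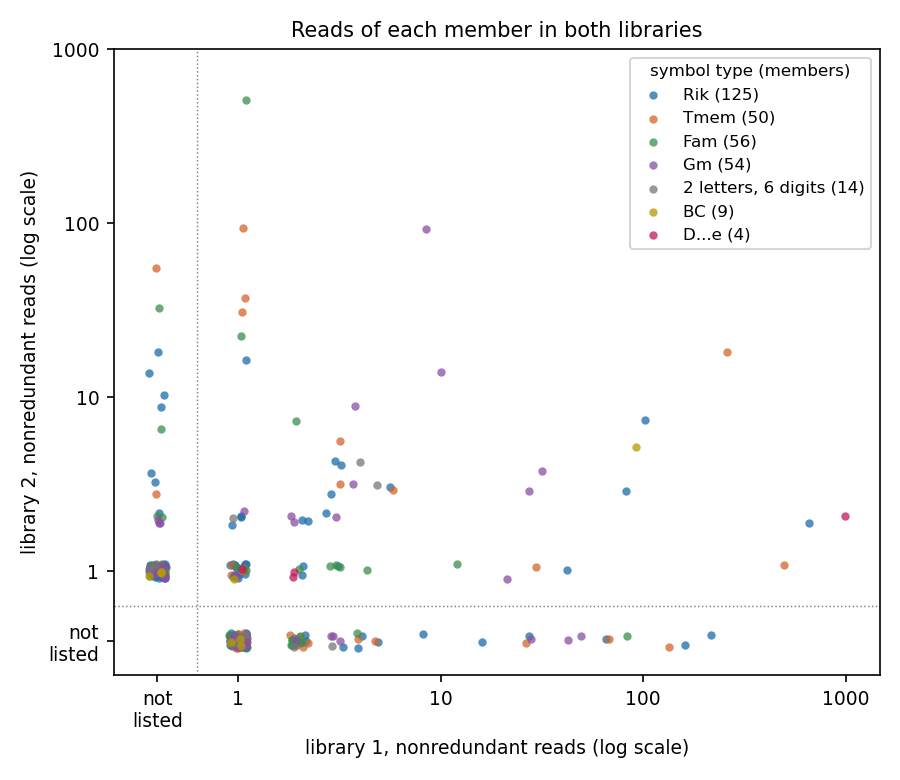
Nonredundant reads of all 312 members in library 1 (horizontal) and library 2 (vertical), both on log scales, with a small random offset so that equal values can be seen and with unlisted genes in the outer strips; colours give the symbol form. Most points lie at 1 read or along the axes, and just 2 members have 10 or more reads in both libraries.

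A gene with 10 or more reads in either library was said to lean to the library in which its share of reads was at least 4-fold higher, with unlisted genes set at 3 reads. By this rule 25 of 38 members leaned to library 1 (65.8%, 95% interval 48.6 to 80.4), against 55.2% of the 750 genes tested. To library 2 leaned 11 (28.9%, 15.4 to 45.9), against 32.4%. The intervals of both shares hold the values of all genes. The other 2 members, Gm37013 and 2810417H13Rik, leaned to neither. Of the 38, 17 were not listed in the other library and 15 had 1 to 3 reads there, a split not counted over all 750 genes. Having 10 or more reads in both libraries was rare at large too, with 43 of the 750, against 2 of the 38. With 1 pooled table per library, a lean describes these pools and no condition.

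Redundant and nonredundant reads of the members did not keep 1 ratio. Library 1 gave members 20.0 redundant reads for each nonredundant one, against 15.5 for other listed genes. Library 2 gave members 7.12, against 27.2 for other listed genes. The 2 counts were equal in 131 of 225 members of library 1 and in 97 of 164 of library 2. Among other listed genes they were equal in 2227 of 3959 and in 1683 of 3004, a similar part. Among members with 10 or more nonredundant reads in the same library, the ratio was highest for Tmem71 (45.8), D6Wsu163e (32.7), Tmem163 (32.1), 2310035C23Rik (20.6) and 1600023N17Rik (17.6), all in library 1. 1700113H08Rik, with the second most reads there, had 6.08. In library 2 Fam178b had 10.6. A few members of low nonredundant count also had many copies in library 2, with 3 nonredundant and 221 redundant reads for Tmem132d, 7 and 207 for Fam172a, and 2 and 104 for D630045J12Rik.

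**Figure D3:**
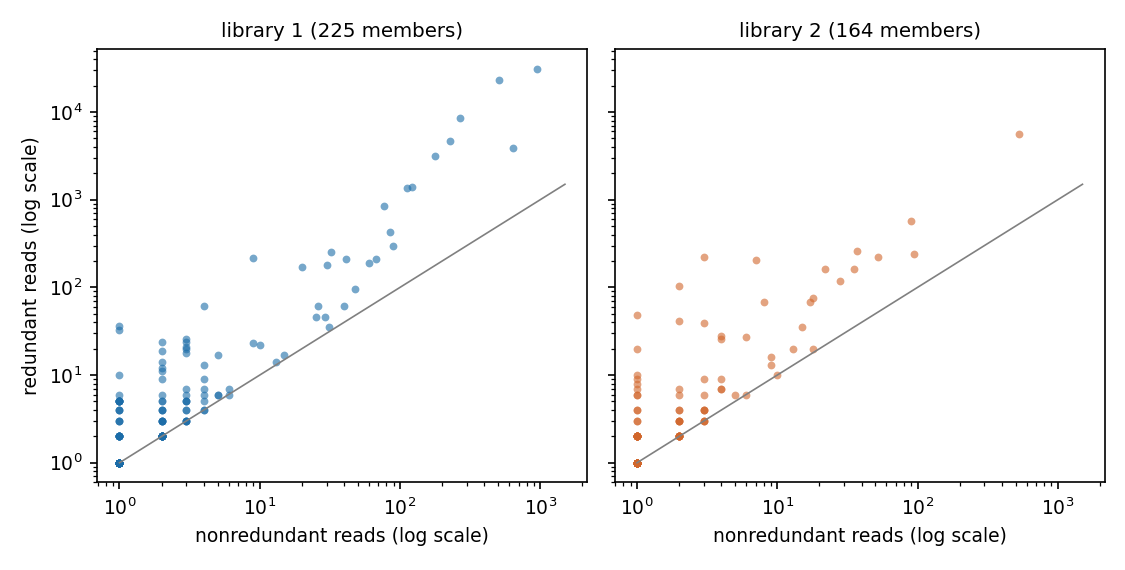
Redundant (vertical) against nonredundant reads (horizontal) of each listed member, on log scales, in library 1 (left) and library 2 (right); the line marks equal counts. D6Wsu163e and Tmem71 are the highest points of library 1 with 31013 and 23332 redundant reads, and Fam178b is the highest of library 2 with 5631.

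Several Gm members have windows like those of other members, and reads of such genes may be split or moved between copies. Among the 260 members with a window in the RefSeq table, 16 had a window like that of another member (at least 30 shared runs of 20 bases), 13 of them Gm genes and 6 on the X chromosome. The windows so paired were 84.3% to 99.3% identical, and whole genes were not compared. Together the 16 held 121 reads in library 1 and 118 in library 2. The X-linked Gm15085, Gm15107 and Gm15127 had 31, 1 and 40 reads in library 1, and 4 reads for Gm15085 alone in library 2. The X-linked Gm2012, Gm10230 and Gm1993 had 29 reads for Gm2012 alone in library 1, and 3, 1 and 1 in library 2. On chromosome 14, Gm5795 (9 and 94 reads) had a window 85.3% identical to that of Gm5458 (2 reads in library 2).

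The windows of both X-linked groups are printed to show how few bases set the copies apart (RefSeq, GRCm38.p6, 250 bases before to 50 after each gene start). Capitals mark bases with no identical partner in a global alignment to the first gene of the group, and a run of capitals at an end has no partner inside the first gene's window. The first group lies at chrX:149447367-149447666, plus strand, at chrX:148180474-148180773, plus strand, and at chrX:148663354-148663653, plus strand.
Gm15085: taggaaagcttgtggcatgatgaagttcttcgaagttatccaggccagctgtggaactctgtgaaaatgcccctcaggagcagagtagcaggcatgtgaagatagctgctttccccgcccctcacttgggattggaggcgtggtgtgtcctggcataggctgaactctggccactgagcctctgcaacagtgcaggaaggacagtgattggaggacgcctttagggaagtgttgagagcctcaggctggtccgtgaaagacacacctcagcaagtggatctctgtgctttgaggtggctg
Gm15107: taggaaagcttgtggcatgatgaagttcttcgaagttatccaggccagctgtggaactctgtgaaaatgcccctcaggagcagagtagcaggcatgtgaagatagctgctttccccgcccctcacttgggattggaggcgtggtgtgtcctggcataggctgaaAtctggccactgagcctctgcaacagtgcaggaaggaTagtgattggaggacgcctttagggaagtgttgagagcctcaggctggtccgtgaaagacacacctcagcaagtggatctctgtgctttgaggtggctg
Gm15127: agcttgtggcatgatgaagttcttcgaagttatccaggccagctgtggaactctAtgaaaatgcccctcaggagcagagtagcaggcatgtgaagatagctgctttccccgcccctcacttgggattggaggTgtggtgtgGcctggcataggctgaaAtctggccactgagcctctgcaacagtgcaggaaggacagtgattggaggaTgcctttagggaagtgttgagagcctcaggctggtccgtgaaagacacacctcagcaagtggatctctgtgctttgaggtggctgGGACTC
Gm15107 was 99.3% identical to Gm15085 with 2 marked bases, and Gm15127 was 96.3% identical with 11. The second group lies at chrX:26231274-26231573, minus strand, at chrX:27494893-27495192, minus strand, and at chrX:25570400-25570699, minus strand.
Gm2012: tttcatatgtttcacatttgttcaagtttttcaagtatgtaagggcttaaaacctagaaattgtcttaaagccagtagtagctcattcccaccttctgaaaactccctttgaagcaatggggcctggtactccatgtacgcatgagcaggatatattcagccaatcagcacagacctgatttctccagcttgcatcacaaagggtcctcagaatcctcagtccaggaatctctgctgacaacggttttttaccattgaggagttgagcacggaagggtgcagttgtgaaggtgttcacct
Gm10230: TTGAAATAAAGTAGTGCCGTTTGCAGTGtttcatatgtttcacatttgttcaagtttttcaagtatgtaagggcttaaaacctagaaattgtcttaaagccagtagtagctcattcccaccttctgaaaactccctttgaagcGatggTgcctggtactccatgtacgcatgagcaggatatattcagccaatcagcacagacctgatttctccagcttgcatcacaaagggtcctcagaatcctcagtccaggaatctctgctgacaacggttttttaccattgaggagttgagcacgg
Gm1993: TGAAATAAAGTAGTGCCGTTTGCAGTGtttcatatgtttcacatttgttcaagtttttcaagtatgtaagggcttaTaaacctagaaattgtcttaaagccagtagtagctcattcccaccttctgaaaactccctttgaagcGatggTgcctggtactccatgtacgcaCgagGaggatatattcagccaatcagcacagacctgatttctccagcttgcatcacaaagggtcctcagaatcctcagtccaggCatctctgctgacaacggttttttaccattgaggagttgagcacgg
Gm10230 was 90.0% identical to Gm2012 over the whole window and Gm1993 89.0%, with 30 and 33 marked bases, most of them in the run at the start. The transcripts under which the tables list Gm15085 belong to 4 genes of the RefSeq table, and those of Gm15127 to 3. In all, 10 members were listed with transcripts of more than 1 RefSeq gene, Gm37013 with those of 22 genes among them. The values of these genes are uncertain per copy, and how reads with several matches were treated is not given in the sources used here.

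Overlapping genes pose the same question. Of 311 members matched to the RefSeq table, 23 overlapped another listed gene there, 4 of them among the 38 with 10 or more reads. 2010111I01Rik (77 and 3 reads) overlaps Fancc (3 and 1), Gm21949 (20 and 1) overlaps Iqcj (3 in library 1 alone), and Gm37013 (10 and 15) overlaps the protocadherin gene Pcdha1 (1 and 2). 2810417H13Rik (10 reads) overlaps Trip4 (16 reads), both listed in library 2 alone. In library 1 CK137956 had 3 reads beside the 97 of Csmd2. Gm11715 had 1 read in library 2, beside Nol11 with 266 reads in library 1 and 1 in library 2. Counts were equal in 4 of the 23 pairs, each at 1 read. Strand is not given, so reads of overlapping genes cannot be told apart here.

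Genes that still carry a placeholder symbol were listed less often than other genes, and they are also shorter. All 312 members are listed by definition, so this comparison used the 1548 genes of the RefSeq table with NM transcripts whose present symbol still has one of the forms above, of which 215 were listed in either library (13.9%, 95% interval 12.2 to 15.7), against 5386 of 19483 other genes (27.6%, 27.0 to 28.3). Their median gene length was 10.5 kb, against 18.5 kb. Over 5 length classes with the same number of genes each, the shortest held 29.0% of them and the longest 9.24%, against 19.3% and 20.9% of other genes.

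Within these classes the ratio of the listed share to that of other genes was 0.567 to 0.771, against 0.502 without regard to length. In the longest class 77 of 143 such genes were listed (53.8%, 95% interval 45.3 to 62.2), against 69.8% of other genes (68.4 to 71.3), with median lengths of 91.5 and 111 kb. In the next class the shares were 27.4% (22.0 to 33.3) and 36.9% (35.4 to 38.4), with medians of 35.8 and 37.1 kb. The intervals overlapped in the shorter classes, with 13.7% against 18.7%, 5.66% against 7.94% and 0.891% against 1.57%. At 10 or more reads in the longest class the shares were 9.79% (5.46 to 15.9) and 13.0% (12.0 to 14.1), with overlapping intervals. The direction rests on present symbols. Renamed genes count among the other genes here, 97 of them listed in the tables under a placeholder symbol, and without these 97 the share of other genes was 27.3%. When genes with a synonym of a placeholder form were counted with the placeholder genes, 29.7% of 14455 genes were listed (28.9 to 30.4), against 19.9% of the remaining 6576, and the median lengths were 21.6 and 10.5 kb. Whether these synonyms are former symbols was not checked. Genes are not independent replicates, genes with similar windows are counted among the members, and their part in the difference was not tested. The gene annotation behind the tables is not given, and mm9 is the build named. How many of the genes compared here could be listed at all is therefore not known.

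**Figure D4:**
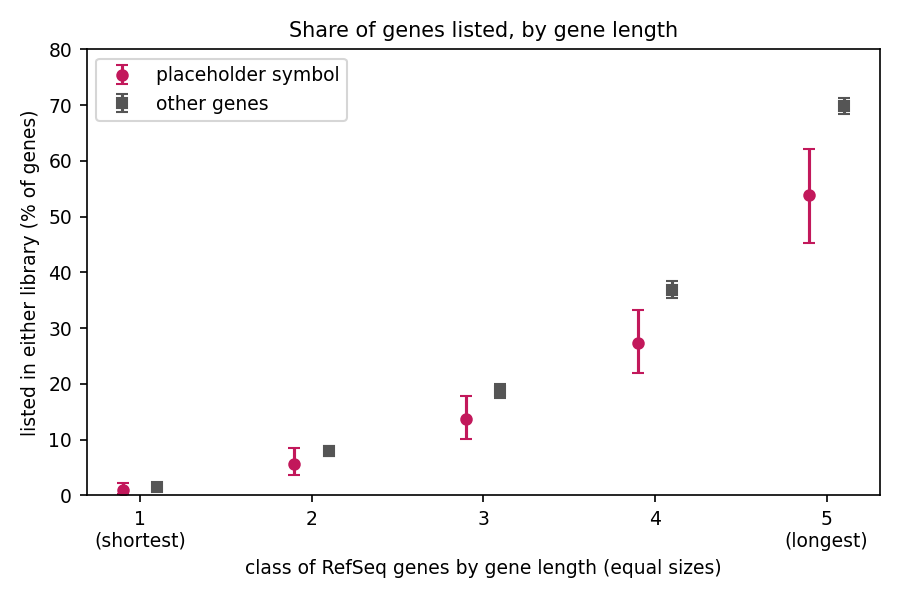
Share of genes listed in either library (vertical axis, percent) in 5 classes of gene length from shortest to longest; circles are genes whose symbol has a placeholder form, squares other genes, and bars exact 95% intervals. The shares climb in both groups, to 53.8% and 69.8% in the longest class.

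Among listed members, those in both libraries were the longest, with a median of 71.5 kb for 77 genes, against 41.3 kb for those in library 1 alone and 28.8 kb for those in library 2 alone. Members with 10 or more reads had a median of 70.1 kb, members with 1 read in all 30.8 kb. Over all 311 matched members the median was 39.0 kb, against 64.1 kb for other listed genes. The lengths are those of GRCm38.p6 and not of mm9, the build named in the submitters' processing notes.

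Of the 312 placeholder symbols, 101 (32.4%) have another symbol in the RefSeq table, against 1.81% of other listed genes. The share was 66.7% for the 9 BC symbols, 46.4% for Rik, 35.7% for Fam, 20.4% for Gm, 10.0% for Tmem and 7.14% for symbols of 2 letters and 6 digits, and no D-number symbol was renamed. Renamed members had 512 reads in library 1 and 200 in library 2, and 11 of them had 10 or more reads in either library. The rest of the renamed members reached at most 9 reads per library, among them several with well-known roles. 1110034G24Rik (now Shld1, a shieldin subunit in DNA break repair) had 3 and 1 reads, and Fam35a (now Shld2, of the same complex) 1 in library 1. Fam49b (now Cyrib, a partner of Rac proteins) had 3 and 1, and Fam208a (now Tasor, of a silencing complex) 1 in library 1. 3110043O21Rik, now C9orf72 after the human gene mutated in motor neuron disease, had 1 read in library 1. Subunits of the WASH complex, which builds actin on endosomes, were listed under Fam21, A230046K03Rik and E430025E21Rik with 1 read each, the last of them in library 2.

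Lists of Fam and Tmem genes with known functions were in the tables about as often as genes at large. Of the 74 symbols in 12 such lists, 18 were listed (24.3%, 95% interval 15.1 to 35.7), against 26.6% of all 21031 RefSeq genes with NM transcripts. At 10 or more reads there were 3, Tmem55a, Fam134b and Fam155a (4.05%, 0.844 to 11.4), against 3.56% of those genes. Of the 5 Tmem132 genes, which encode proteins with adhesion-type domains, 4 were listed, with 13 reads in library 1 and 12 in library 2. Tmem132b had 3 and 6 reads, Tmem132d 6 and 3 and Tmem132c 3 and 3, so none of them reached 10 reads in either library. Of 9 genes of the ciliary transition zone and cilia, 3 were listed (Tmem237, Tmem231 and Tmem218), with 3 reads in library 1 and 1 in library 2. Of 13 Tmem channels and lipid flippase subunits, 2 were listed, Tmem38b and Tmem63c, each with 1 read in library 1. Of 15 Tmem proteins of lysosome, Golgi and endoplasmic reticulum, 4 were listed, led by Tmem55a. The Fam134 receptors of reticulophagy had 1 of 3 listed, Fam134b, and the NALCN channel factors 1 of 2, Fam155a. Of 3 Fam13 genes Fam13c was listed, with 2 reads in library 1 and 1 in library 2. No gene was listed under the symbols of the Fam20 secretory kinases (3 symbols), the Fam46 poly(A) polymerases (4), the Fam83 family (8) or the Fam3 cytokine-like proteins (4).

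By their RefSeq positions the members lay on all 21 chromosomes, with 1 member, Gm20736, on the Y chromosome. Chromosome 4 had the most, 30 members (9.65%, against 6.21% of other listed genes), and the X chromosome had 16 (5.14%, against 3.38%). Chromosome 6 had 9 members, yet 958 of the members' reads in library 1 and 11 in library 2, nearly all from D6Wsu163e in library 1. On chromosome 10 the 738 reads of library 1 came mostly from 1700113H08Rik and Fam184a, while library 2 had 5 there. On chromosome 14 the reads were 30 in library 1 and 109 in library 2, of which Gm5795 had 9 and 94.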

How the data were processed

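Junction reads of genomic DNA from 4 samples (2 libraries of 2) were measured by splinkerette PCR on a HiSeq instrument, per the labels' protocols. The deposited tables hold raw whole-number counts of nonredundant and redundant reads per gene, with no normalization by the authors, and list a gene from 1 read on. CASAVA, BWA and mm9 are named, without versions, per the submitters' processing notes; the sources used here do not give how reads were assigned to genes or what made a read nonredundant. Both tables pool their samples, so groups follow the table each label names, and no test between conditions was possible.

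Members were found by symbol. Genes were named by a rule: the 10 members with most reads per library, the 10 with the highest lower count, the 3 leading genes of each symbol form, the 5 with the highest redundancy, and leading genes of 12 lists, of which 1 is not reported here by itself. Other members were named after their values were seen. The members and lists were chosen with earlier results of these data known. Tables were matched to RefSeq genes of GRCm38.p6 by transcript (307 members), symbol (2) or synonym (2); 3110021N24Rik had no match. Shares carry exact Clopper-Pearson 95% intervals. Ratios of shares carry exact conditional intervals, with an unlisted gene at a floor of 3 reads per library. PCR reads lack molecular identifiers and so do not count independent molecules. Windows were aligned globally with Biopython 1.88 (match 1, mismatch -1, gap -3 and -1). Python 3.11.15, pandas 2.3.3 and SciPy 1.17.1 were used.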

Additional observations from a re-analysis of the deposited data

How the results depend on the processing

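No paired analysis was possible because each table pools its 2 samples and gives 1 value per library. For the same reason no sample could be left out. At a minimum of 2 nonredundant reads the members listed in library 1, library 2 and both numbered 89, 55 and 28, and at 10 reads 26, 14 and 2. Without Fam and Tmem symbols, 145 members were listed in library 1 and 51 in both, 4 leaned to library 2, and members held 5.10% of library 1 and 0.710% of library 2 reads. By redundant reads 38 members leaned to library 1 and 16 to library 2, out of more members than the 38 tested by nonredundant reads. These counts were not set beside those of all genes. By redundant reads members also held 9.29% and 0.673% of the reads, and 48.4% and 50.6% of listed members had 1 read. At 50 or more reads in either library 13 members leaned to library 1 and 4 to library 2. These counts, and the 4 without Fam and Tmem symbols, were likewise not set beside those of all genes. In the main setting, 55.2% of the 750 genes tested leaned to library 1 and 32.4% to library 2. Without the leading member, the members' shares of the 2 libraries were 5.63% and 1.43%. At 10 or more reads, 97.4% of members had an NM transcript, since 1600023N17Rik was 1 of 38. The listed share of genes with a present placeholder symbol was 13.8 percentage points below that of other genes (-13.8). With synonyms of a placeholder form counted it was 9.76 points above, the reverse direction. That wider group held 14455 of 21031 genes, and whether its synonyms are former symbols was not checked. Of the 44 alternatives 22, the 16 members by redundant reads among them, moved a count by no more than 1.5 times or a share within its interval. Of the 44, 7 were chosen after seeing the data (5 without members of similar windows, 2 on renamed genes or synonyms).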

Other observations

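Other families of numbered symbols gave shares of listed genes on both sides of the Tmem and Fam genes, counted over RefSeq genes with NM transcripts by present symbol, so that renamed genes are left out. Tmem genes were listed in either library for 47 of 235 (20.0%, 95% interval 15.1 to 25.7) and Fam genes for 37 of 151 (24.5%, 17.9 to 32.2). The shares were 18.9% for Zfp (392 genes), 19.7% for Lrrc (66), 23.4% for Ankrd (47), 32.8% for Ccdc (137), 33.3% for Fbxo (36), 37.8% for Klhl (37) and 40.0% for Wdr (65). Median gene lengths ran from 13.7 kb for Tmem and 18.1 kb for Zfp to 31.7 kb for Wdr, the family with the highest share. The order of the shares did not follow length throughout. Fam genes (26.4 kb) had a lower share than Ccdc genes (22.1 kb), and Tmem genes a higher share than Zfp genes. These are descriptions, and the differences were not tested.

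Gm20736, on the Y chromosome in the RefSeq table, had no entry in library 1 and 2 reads in library 2. Of the other listed genes, 7 lay on the Y chromosome too (0.132%, against 0.322% of members). Library 2 also listed 8 members on the X chromosome, although the cells carried 1 chromosome set. Whether the reads of Gm20736 were rightly assigned was not tested. Tmem71 and D6Wsu163e had more redundant reads per nonredundant read than 1700113H08Rik in the same library, 45.8 and 32.7 against 6.08, at 509, 949 and 642 nonredundant reads.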
